A study of Mus musculus with 2 samples.

Results

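Broad domains of trimethylated lysine 4 on histone H3 (H3K4me3) made up 432 of the 24694 H3K4me3 domains, or 1.75%, found on chromosomes 1 to 19 and X of MEL cells (95% Wilson interval 1.59% to 1.92%). A domain was a run of replicated peaks on the mouse build mm10 joined across gaps of at most 1000 bp, and it was called broad when it spanned at least 5000 bp. The members were thus chosen by measured peak positions and widths, and those widths are given as a description, without a test. The 24262 narrower domains are the comparison. A gene was placed in a domain when its 5' end lay inside it.

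Both samples were MEL cells, an immortalized mouse erythroleukaemia line that the labels liken to human K562 cells, and both had been given 2% DMSO over 5 days. They are labelled biological replicates 1 and 2 of this 1 group. All samples share the treatment, the line and the antibody, and cells without DMSO were not analysed here. No value below is therefore an effect of DMSO. Chromatin immunoprecipitation with sequencing (ChIP-seq) was deposited as called peaks, and no read counts were in the files, so the depth behind each value is unknown.

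H3K4me3 is written by SET1 and MLL methyltransferase complexes at promoters where transcription starts, and CpG-rich promoters carry it in many cell types. At most active promoters the mark covers the nucleosomes next to the start. At some genes it runs on into the gene body, and such broad domains have been described in other tissues at genes that define the cell type. MEL cells are transformed red cell precursors, in which transcription factors such as Tal1, Nfe2 and Gata1, heme enzymes and membrane skeleton proteins are the genes of the erythroid programme.

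The labelled cell type was checked against defining markers. Of all 21318 protein-coding genes with a known strand, 9261 had the 5' end in a domain and 429 (2.01%) in a broad one. Of 12 erythroid markers, 10 had the 5' end in a domain and 7 in a broad one, and 11 had some listed start in a domain. The exception was Slc4a1, the anion exchanger band 3. Of 9 granulocyte and macrophage markers 1 had a domain, of 6 B cell markers 0, of 6 T and NK cell markers 1 (2 by any listed start), of 6 megakaryocyte markers 2, of 5 mast cell markers 2 and of 5 fibroblast and epithelial markers 0. None of these markers of other cells lay in a broad domain. Few of them had any domain, and 4.63% of all genes in a domain were in a broad one. This absence is therefore near the background share and says little about the cell type.

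Promoter windows of 5 genes are shown as examples of CpG-rich and CpG-poor promoters under broad domains, with 39, 35, 21, 11 and 1 CpG dinucleotides in the order given. Each window runs from 250 bp before to 50 bp after a RefSeq start (GRCm38.p6, the assembly behind mm10), is written 5′ to 3′ on the gene's strand, and has each CG in capitals. The windows are Irf2bp2 (chr8:126593937-126594236, minus strand), Foxo3 (chr10:42276646-42276945, minus strand), Sptb (chr12:76710498-76710797, minus strand), Tal1 (chr4:115056176-115056475, plus strand) and Kel (chr6:41704276-41704575, minus strand).
Irf2bp2: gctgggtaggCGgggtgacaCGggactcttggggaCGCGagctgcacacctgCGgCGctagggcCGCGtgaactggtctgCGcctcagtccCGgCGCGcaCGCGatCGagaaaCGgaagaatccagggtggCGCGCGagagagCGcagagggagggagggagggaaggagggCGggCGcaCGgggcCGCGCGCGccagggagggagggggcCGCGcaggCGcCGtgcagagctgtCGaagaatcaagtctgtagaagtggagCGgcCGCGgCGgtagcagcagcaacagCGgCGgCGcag
Foxo3: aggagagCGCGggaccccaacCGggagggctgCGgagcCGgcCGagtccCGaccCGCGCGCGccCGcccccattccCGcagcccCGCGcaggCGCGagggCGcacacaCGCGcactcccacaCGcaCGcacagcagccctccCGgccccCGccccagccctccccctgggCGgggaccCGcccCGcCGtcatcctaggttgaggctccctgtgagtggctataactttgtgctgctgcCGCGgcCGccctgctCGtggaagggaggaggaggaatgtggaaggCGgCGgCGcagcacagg
Sptb: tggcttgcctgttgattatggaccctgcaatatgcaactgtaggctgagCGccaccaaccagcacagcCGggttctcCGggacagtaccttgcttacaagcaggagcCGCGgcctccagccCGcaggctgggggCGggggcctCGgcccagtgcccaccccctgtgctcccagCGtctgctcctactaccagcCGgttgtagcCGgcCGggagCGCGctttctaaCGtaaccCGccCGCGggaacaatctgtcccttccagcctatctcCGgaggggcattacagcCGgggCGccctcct
Tal1: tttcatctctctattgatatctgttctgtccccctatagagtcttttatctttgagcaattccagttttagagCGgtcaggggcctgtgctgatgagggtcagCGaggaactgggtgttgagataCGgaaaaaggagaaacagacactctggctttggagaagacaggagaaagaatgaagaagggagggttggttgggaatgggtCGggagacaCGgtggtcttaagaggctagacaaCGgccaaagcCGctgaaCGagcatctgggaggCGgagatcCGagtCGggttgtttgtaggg
Kel: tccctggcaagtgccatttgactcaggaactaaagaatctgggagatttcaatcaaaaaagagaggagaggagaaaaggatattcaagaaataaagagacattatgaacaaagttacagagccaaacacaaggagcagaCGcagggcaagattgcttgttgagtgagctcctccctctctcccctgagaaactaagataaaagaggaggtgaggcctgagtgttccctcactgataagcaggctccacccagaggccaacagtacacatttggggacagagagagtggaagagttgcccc
The domains over these starts were 15605, 8557, 5362, 8276 and 6122 bp wide. Kel, a red cell blood group metalloprotease, thus had a broad domain over a window with 1 CpG, and Irf2bp2, a transcriptional corepressor, had the second widest domain of all over a window of 71.7% GC.

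The 432 broad domains covered 2.729 Mb, or 7.344% of all bases in domains. Their median width was 5787.5 bp, with quartiles of 5325.75 and 6785.75 bp, and the narrower domains had a median of 1166 bp. Widths bunched near the threshold. There were 243 domains from 5000 to under 6000 bp, 99 from 6000 to under 7000 bp, 45 from 7000 to under 8000 bp, 29 from 8000 to under 10000 bp and 16 of 10000 bp or more. Just inside the threshold lay the domains of Cenpa, the centromeric histone variant (5007 bp), Ptbp1, a splicing regulator (5003 bp), and Wrn with Purg (5002 bp), and gene-less domains at chr15:97663523-97668527 (5005 bp) and chr9:67041147-67046146 (5000 bp). Just outside it lay the domains of Kcnn4, a potassium channel (4993 bp), Mllt6 (4992 bp), Ppip5k2 with Gin1 (4989 bp), Anp32b (4987 bp) and Ago2, the argonaute slicer (4986 bp). Those neighbours differ by a few bases, so the threshold divides a continuous run of widths.

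Most broad domains were joined from several peaks. The median number was 3 peaks, 28 domains were 1 peak, 311 had 2 to 4 peaks and 93 had 5 or more. Peaks covered a median of 92.8% of a broad domain, the rest being gaps. The domain of Bcl11a, the repressor of fetal globin genes in human, was 1 unbroken peak of 10805 bp (chr11:24073736-24084540). The lowest coverage was that of P2rx7, an ATP-gated channel, whose 5 peaks filled 49.0% of 6701 bp. Car2 and Myc also had 1 peak each, of 7394 and 6926 bp. Peaks alone covered at least 5000 bp in 295 of the 432 domains.

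Each replicate had its own deposited peaks, so the width of every domain could be read again in each. Replicate 1's own peaks gave 458 domains of at least 5000 bp and replicate 2's gave 409, a mean of 433.5 ± 34.65 (SD, n = 2). The widest overlapping domain reached 5000 bp in both replicates for 342 of the 432 broad domains, or 79.17% (75.09% to 82.73%). It did so in replicate 1 alone for 49, in replicate 2 alone for 29 and in neither for 12. All 432 overlapped peaks in both replicates. The replicated set was itself derived from these peaks, so this is a measure of spread and not an outside check.

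Wider domains more often reached 5000 bp in both replicates, which follows in part from their distance above that threshold. Of those of at least 6000 bp, 174 of 189 were broad in both replicates (92.06%), against 168 of 243 under 6000 bp (69.14%), and all 16 of at least 10000 bp were. The SD of the 2 replicate widths was a median of 2.91% of their mean, and that of the enrichment values 13.5%. Zfp36l2 was almost the same in each, at 10584 and 10579 bp. P2rx7 differed the most, at 1064 bp in replicate 1 and 8978 bp in replicate 2. Gypc, which encodes glycophorin C, had 9307 bp in replicate 1 and 4920 bp in replicate 2, a difference of more than 3000 bp. P2rx7 was named for this difference after its values were seen.

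**Figure D1:**
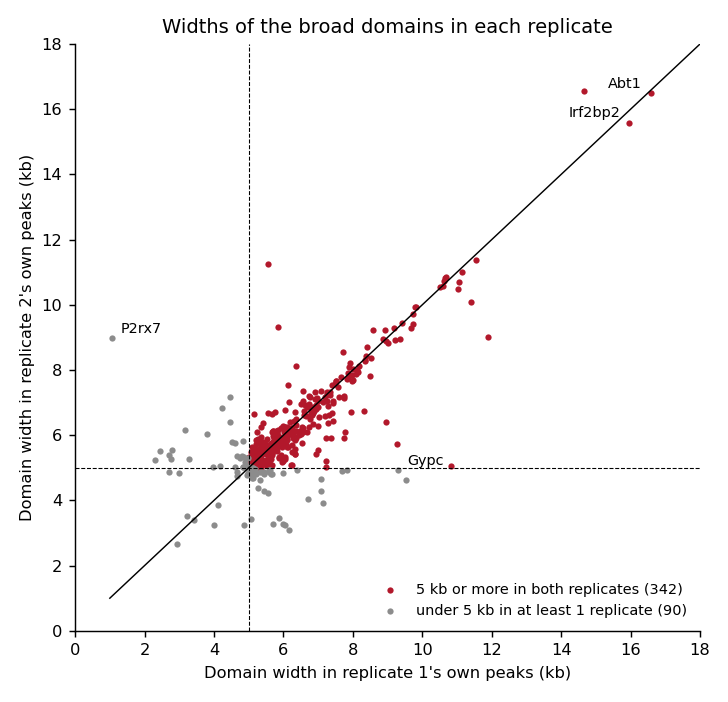
Width of each of the 432 broad domains in the own peaks of replicate 1 (x axis, kb) and replicate 2 (y axis, kb); dashed lines mark 5 kb and the solid line equal widths. The 342 domains of at least 5 kb in both lie close to the line, Abt1 and Irf2bp2 at its far end, while P2rx7 and Gypc lie off it.

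The widest domain with a gene was that of Abt1, a basal transcription activator, at 16556 bp (chr13:23423197-23439752; 16575 bp in replicate 1 and 16495 bp in replicate 2). It reached 15886 bp upstream of the Abt1 5' end and 669 bp downstream, and held 10 tRNA genes. Irf2bp2 followed at 15605 bp (chr8:126583511-126599115; 15962 and 15589 bp) and its domain covered the whole gene of 5691 bp. A domain of 14750 bp (chr8:120484931-120499680; 14653 and 16553 bp) lay in Gse1, which encodes a coiled-coil protein, over another listed start of that gene. Next came 4 histone genes in 13822 bp on chromosome 13 (H1f5, H3c11, H2ac22 and H2bc22), where the replicates' own peaks gave separate domains of up to 7274 and 6895 bp.

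Among the 15 widest domains, 5 held 1 protein-coding 5' end each and no tRNA gene, outside the erythroid factors. The first is that of Irf2bp2. Car1, carbonic anhydrase 1 of red cells, had 10996 bp (11396 and 10092 bp). Ppp1r9b, which encodes spinophilin, a targeting subunit of protein phosphatase 1, had 10786 bp (10670 and 10860 bp). Irs2, the insulin receptor substrate that couples receptors to PI3 kinase, had 10698 bp (11062 and 10697 bp). Zfp36l2, a zinc finger protein that destabilizes AU-rich mRNAs, had 10599 bp. Domains over the gene bodies of Nadk2, a mitochondrial NAD kinase (chr15:9069782-9081333, 11552 bp), and Nfia, a nuclear factor I protein (chr4:97771468-97782578, 11111 bp), held no listed protein-coding start. Their replicate widths were 11541 and 11372 bp for Nadk2, and 11131 and 10994 bp for Nfia. The remaining 3 of the 15 widest were tRNA clusters, described below.

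The 5' ends of 429 protein-coding genes lay in broad domains. These were 2.01% of the 21318 genes with a known strand and 4.63% of the 9261 genes with the 5' end in any domain, and those shares are the background for the lists that follow. Broad domains held such a 5' end in 340 of 432 cases (78.7%, 74.6% to 82.3%), against 32.03% of the narrower ones. Among domains with a 5' end, 22.65% of broad ones held 2 or more, against 13.47% of narrower ones. A wider domain has more room for 5' ends, so both differences follow in part from the rule. Of the 67 broad domains with exactly 2 such ends, the genes pointed away from each other in 40, towards each other in 20 and lay on 1 strand in 7. The share of domains that were broad was 2.81% on chromosome 13, 2.74% on chromosome 19 and 2.64% on chromosome 15, and was lowest on chromosome 18 at 1.08%.

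Broad domains held 25 genes of the 5 erythroid lists. They were 42.37% of the 59 list genes in any domain (30.61% to 55.07%), beside the 4.63% of all genes in a domain. Their 25 domains had a median width of 5898 bp and a range of 5047 to 11129 bp, and 21 of them were broad in both replicates. The lists were not alike. Transcription factors and membrane proteins supplied 20 of the 25 genes, heme and iron genes 5, and globins and late maturation genes 0. The lists were compiled with earlier results of these data known, so the counts describe them and no test was made.

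Of 20 erythroid transcription factors, 15 had the 5' end in a domain and 11 in a broad one, with a median width of 5898 bp against 2333 bp for all genes in a domain. Nfe2, the large subunit of the NF-E2 factor that binds globin enhancers, had 11129 bp (chr15:103249428-103260556; 11038 bp in replicate 1 and 10475 bp in replicate 2). Bcl11a had 10805 bp (10632 and 10719 bp). Foxo3, a forkhead factor active in red cell maturation, had 8557 bp (8569 and 9232 bp). Tal1, the basic helix-loop-helix factor needed for blood formation, had 8276 bp (8351 and 8261 bp). For these 4 genes each replicate was above 8000 bp.

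Zfpm1, the GATA1 cofactor FOG-1, had 7453 bp (6919 and 7331 bp), and Klf13, a Krüppel-like factor, had 6941 bp (6626 and 6928 bp). The others lay closer to the threshold, yet reached it in both replicates. Cbfa2t3, the corepressor ETO2 of the Tal1 complex, had 5960 bp (5841 and 5970 bp), and Klf3, a repressor that binds the same CACCC motifs as Klf1, had 5898 bp (5818 and 5953 bp). Myb, which keeps precursors dividing, had 5443 bp (5861 and 5341 bp). Lyl1, a relative of Tal1, had 5409 bp (5309 and 5515 bp), and Zbtb7a, a repressor of fetal globin in human, had 5306 bp (5377 and 5203 bp).

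The 4 erythroid factors in narrower domains were Klf1 (4195 bp), Mafk (3866 bp), E2f2 (3311 bp) and Lmo2 (1378 bp). A further 4 factors had a broad domain within the gene span but outside the 5' end used here. The domain of Ldb1, the bridging protein of the Tal1 complex, was 9674 bp wide (9528 and 4614 bp), that of Gata1 8493 bp (8481 and 7829 bp), that of Ikzf1 7323 bp (7256 and 7321 bp) and that of Gfi1b 5359 bp. Gata1, Ldb1 and Ikzf1 have another listed RefSeq start inside that domain. When broad domains anywhere over the gene were counted, 15 of the 20 factors had one, against 2.397% of all genes.

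Of 23 genes of the red cell membrane and surface, 18 had the 5' end in a domain and 9 in a broad one. Car1 and Car2, carbonic anhydrases that hydrate carbon dioxide, had 10996 and 7394 bp, and Car2 had 8313 bp in replicate 1 and 6738 bp in replicate 2. Kel had 6122 bp (6321 and 5587 bp). The membrane skeleton was represented by Epb41, protein 4.1 (5726 bp; 5547 and 6685 bp), and Sptb, β-spectrin (5362 bp; 5955 and 5165 bp). Icam4, the Landsteiner-Wiener adhesion protein, had 5368 bp (5158 and 5361 bp), in a domain shared with 1 other 5' end. Gypc on chromosome 18 had 5047 bp. Gypc was thus under 5000 bp in replicate 2. Dmtn and Cd47 had broad domains within the gene span alone, of 6139 and 6888 bp, and Tspan33 had one of 5284 bp beside the narrower domain at its 5' end.

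Heme synthesis and iron uptake had 5 broad members among 13 in a domain. Alad, which makes porphobilinogen, had 5909 bp (6340 and 5846 bp), and Abcb10, a mitochondrial transporter of red cell precursors, had 5487 bp (5682 and 5445 bp). Tfrc, the transferrin receptor, had 5362 bp (5432 and 5181 bp). Slc11a2, the iron transporter DMT1, had 5166 bp (5010 and 4985 bp), and Cpox, coproporphyrinogen oxidase, had 5069 bp (4657 and 4880 bp), so neither was broad in both replicates. All 5 lie within 1000 bp of the threshold. Alas2, the rate-limiting enzyme of the red cell, lay under it at 4559 bp.

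Globin genes had 3 of 10 members in a domain, at 2654, 3255 and 3857 bp, and none in a broad one. The α- and β-globin genes are near-identical copies in pairs, and the sources used here do not say how reads that match both were treated. Of 15 late maturation genes, 10 had the 5' end in a domain and 0 in a broad one, the widest being Pim1 at 4931 bp. Replicate 1's own peaks gave 2 broad late maturation genes and replicate 2's gave 1, so this 0 lies near the threshold. Cdkn1b of this list had a broad domain of 5718 bp over its span, beside the domain of 4402 bp at its 5' end.

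**Figure D2:**
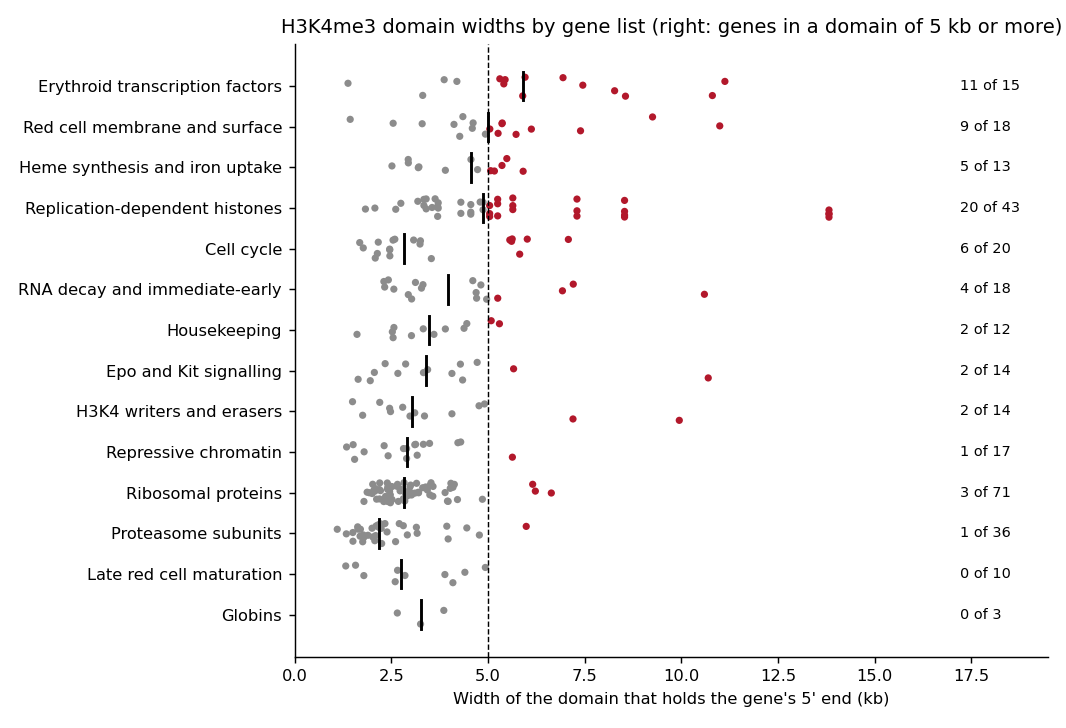
Width of the domain (kb) that holds the 5' end of each listed gene, 1 point per gene in any domain; red points are 5 kb or more, grey points narrower, black bars the list medians, and the dashed line 5 kb. Erythroid factors have 11 of 15 points past the line, ribosomal proteins 3 of 71 and proteasome subunits 1 of 36.

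Lists outside the erythroid programme ranged widely. Of 20 cell cycle genes in a domain, 6 were in a broad one, led by Ccnd2, cyclin D2 (7079 bp; 6552 and 7049 bp), Mki67, the proliferation antigen Ki-67 (6016 bp; 6091 and 5878 bp), and Cdkn2d, an inhibitor of Cdk4 and Cdk6 (5820 bp; 5722 and 5874 bp). The Cdkn2d domain was shared with another protein-coding 5' end. Of 18 RNA decay and immediate-early genes 4 were broad, with Zfp36l2 at 10599 bp, Junb, an AP-1 subunit, at 7206 bp (7207 and 7170 bp), and Myc at 6926 bp (6942 and 6807 bp). Of 14 H3K4 writers and erasers 2 were broad. These were Setd1b, a catalytic subunit of a SET1 complex, at 9949 bp (9829 and 9945 bp) in a domain that also holds the 5' end of Rhof, and Kmt2e at 7199 bp (7613 and 7173 bp).

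Of 14 Epo and Kit signalling genes, 2 were broad, Irs2 and Igf1r, the IGF-1 receptor (5662 bp; 5671 and 5456 bp). Of 17 genes of repressive chromatin, Hdac7, a class IIa histone deacetylase, was the broad member at 5631 bp (5651 and 5390 bp). Of 5 Hox genes in a domain, Hoxc6 was broad at 6386 bp (6360 and 6506 bp). The housekeeping list had 2 of 12, Eef2, the translation elongation factor (5296 bp; 3268 and 5268 bp), and Pgk1, a glycolytic kinase (5083 bp; 5646 and 5078 bp). Of the Friend leukaemia and myeloid factors 0 of 5 were broad.

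Most ribosomal protein and proteasome genes had a domain. Of 80 ribosomal protein genes, 71 had the 5' end in a domain and 3 in a broad one (4.23% of the 71, beside 4.63% of all genes in a domain). They were Rpl36a at 6638 bp (7416 and 6424 bp), Rpl35 at 6225 bp (6137 and 6223 bp) and Rps18 at 6156 bp (6030 and 6094 bp), and each of these domains held other 5' ends too. Of 39 proteasome genes, 36 had a domain and 1, Psmb3, a broad one (2.78%; 5989 bp, 5875 and 5952 bp). The Psmb3 domain was also shared with another protein-coding 5' end. Median enrichment values of genes in a domain were 16.6 for erythroid factors, 13.4 for ribosomal, 13.7 for proteasome and 13.5 for all genes. The granulocyte and macrophage, B cell, T and NK cell, mast cell, and fibroblast and epithelial lists held 65 genes, of which 5 had a domain and 0 a broad one. Stem and progenitor genes and megakaryocyte genes had 5 each in a domain and likewise 0 in a broad one. With so few genes in a domain, these counts of 0 are near the background of 4.63%.

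Broad domains reached further than narrower ones on both sides of the 5' end, and in most cases further into the gene. In the 263 broad domains with 1 protein-coding 5' end, the domain ran a median of 4131 bp downstream (quartiles 3005.5 and 4961 bp) and 1621 bp upstream (948.5 and 3038 bp). The 6723 narrower domains with 1 such end had medians of 1339 bp downstream and 719 bp upstream. Greater reach follows from the greater width, whereas its division between the sides was not part of the rule. The downstream side was the longer in 76.43% of broad domains (70.94% to 81.15%), against 84.46% of narrower ones (83.57% to 85.3%). More than 3000 bp upstream was reached by 25.86% of broad and 0.476% of narrower domains.

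The erythroid genes with 1 end per domain differ in this. Car1 had 10109 bp downstream and 886 bp upstream, Nfe2 8975 and 2153 bp, Bcl11a 7976 and 2828 bp, and Tal1 7762 and 513 bp. In all of these the mark lay mainly over the gene. Epb41 was the reverse, with 1962 bp downstream and 3763 bp upstream. Slc11a2 had 5078 bp downstream and 87 bp upstream, the least upstream reach of the 263. Without read coverage and a transcript annotation for mm10, starts further inside these genes cannot be told apart from spread of 1 promoter's mark.

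**Figure D3:**
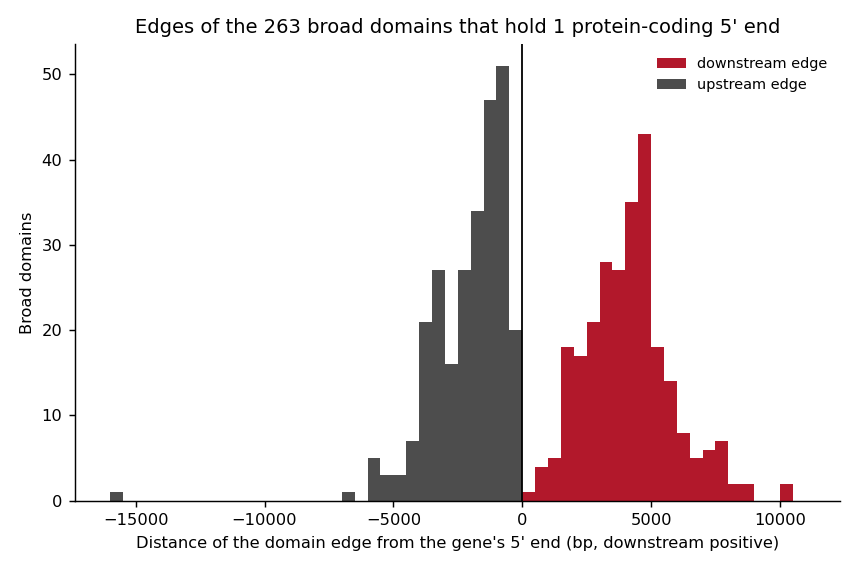
Histogram of the distance (bp, x axis) from the 5' end to the upstream edge (grey, negative) and the downstream edge (red, positive) of the 263 broad domains with 1 protein-coding 5' end; the y axis counts domains in steps of 500 bp. Downstream edges centre near 4131 bp and upstream edges near 1621 bp, and the bar at the far left is Abt1.

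A whole gene lay inside its domain in 17 of the 263 cases (6.464%), against 0.9073% for narrower domains. A wider domain has more room for a whole gene, so this difference follows in part from the rule. Among the 17 were Irf2bp2, Junb, Lyl1, Myc, Zfp36l2, Foxc2, Fzd7, Gadd45b, Gadd45g and Hspa5, and 15 of the 17 genes are under 5000 bp long. Genes of broad domains had a median length of 21366 bp, against 21817.5 bp for genes of narrower domains and 13814 bp for genes with no domain. Genes under 5000 bp long were 15.85% of broad-domain genes (12.7% to 19.61%), against 11.97% of genes of narrower domains (11.31% to 12.66%). The broad-domain genes include 20 replication-dependent histone genes that share 6 domains, and nearly all of these are under 5000 bp long. The shares were not computed without them, so short genes are not shown to be a trait of the other broad domains. In the 247 broad domains with 1 end and several peaks, the peak with the highest enrichment value covered the 5' end in 104 (42.11%), lay wholly downstream in 113 and wholly upstream in 30.

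The strength of the domains was read from the enrichment value. This value is the authors' own score per peak, with a scale that is not stated, and a domain takes that of its highest peak. Broad domains had a median of 14.52 (quartiles 12.03 and 18.06) and narrower domains 7.78. With domains that lack a protein-coding 5' end left out, the medians were 15.1 for broad and 13.4 for narrower ones. The median was 6.88 under 1000 bp, 12.6 from 1000 bp, 13.6 from 2000 bp, 14.6 from 3000 bp and 15.03 from 4000 bp, and then 15.1 from 5000 bp, 15.1 from 6000 bp and 15.9 from 8000 bp. Most of the rise thus lay below 3000 bp, and the median changed little from 4000 to under 8000 bp. Broad domains held a median of 3 peaks and narrower ones 1, so their highest value was drawn from more peaks.

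Of the 432 domains with the highest enrichment values, 27 (6.25%) were broad, beside 1.75% of all domains. The first broad domain ranked ninth, and it was the domain of Stag2, a cohesin subunit, at 31.6 (29.9 in replicate 1 and 18.8 in replicate 2). Mki67 had 31.1 (28.4 and 25.8), Sptb 30.6 (28.8 and 26.7), Gypc 27.5 (26.3 and 22.8) and Foxn3, a forkhead factor, 26.3 (26.3 and 23.9). Stag2 and Foxn3 were named after their values were seen. Domains of more than 10000 bp varied, with 24.4 for Tmem131, 16.1 for Nfe2, 13.6 for Irs2, 13.2 for H1f5 and its neighbours, 10.5 for Car1, 10.2 for Irf2bp2 and 9.97 for Abt1. Kel had 8.17 (7.62 and 6.58). In the erythroid list Sptb was among the narrower and the strongest, and Car1 among the widest and the weaker.

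**Figure D4:**
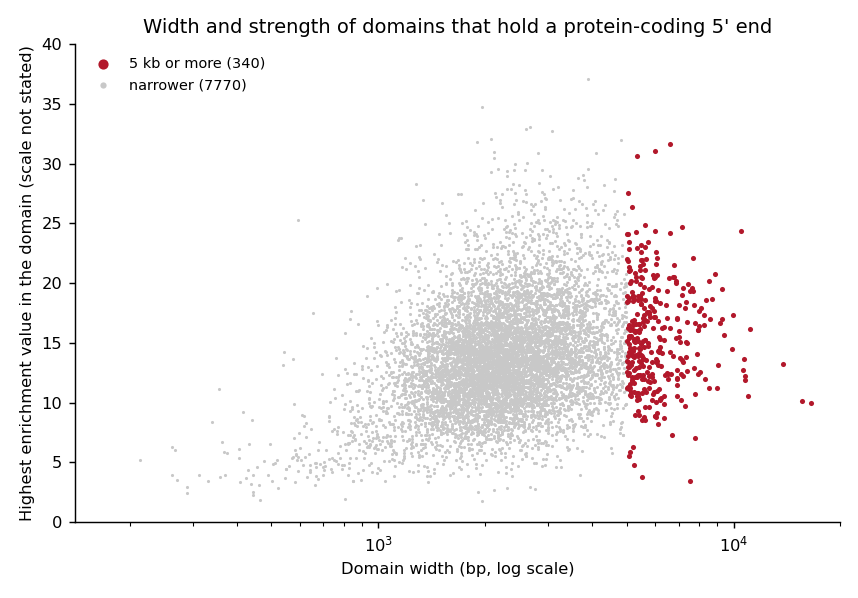
Highest enrichment value (y axis, scale not stated) against domain width (bp, log scale, x axis) for the domains that hold a protein-coding 5' end, with 340 broad ones in red and 7770 narrower ones in grey. The highest values, above 31.6, belong to narrower domains, and broad domains range from 3.43 to 31.6.

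Broad domains without a protein-coding 5' end numbered 92. In 35 of them another RefSeq start of a protein-coding gene lay inside, as in Gse1, Ldb1, Gata1 and Ikzf1. A further 13 held tRNA genes, 11 the start of a long non-coding RNA, 21 covered part of a protein-coding gene and 12 lay outside all such genes. The long non-coding group included C130071C03Rik (9327 bp; 9685 and 9280 bp) and Malat1, an abundant nuclear RNA (7701 bp; 7749 and 7150 bp). Pvt1, the non-coding neighbour of Myc, was overlapped by a domain of 9555 bp (9722 and 9399 bp), and Neat1, the scaffold of nuclear paraspeckles, by one of 8414 bp (8385 and 8419 bp). These non-coding genes were chosen after their values were seen.

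Transfer RNA genes, which RNA polymerase III transcribes, were found in 23 broad domains, or 5.324% (3.574% to 7.862%), against 115 narrower ones, or 0.474%. The share over all domains was 0.559%. A wider domain has more room for tRNA genes, so this difference follows in part from the rule. The tRNA genes were looked at after the widest gene-less domains had been seen. Of 408 tRNA genes, 251 lay in a domain and 94 of these in a broad one (37.45%). Broad domains held 7.344% of all bases in domains. At least 3 tRNA genes lay in 17 broad and 7 narrower domains. The 23 domains had a median width of 7095 bp and a median enrichment value of 13.2, and 20 of them were broad in both replicates.

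On chromosome 13, 7 broad domains held 37 tRNA genes, and 5 of these domains lay between positions 23423197 and 23536949. Besides the Abt1 domain these included chr13:23516264-23527336 with 7 tRNA genes (11073 bp; 6043 and 6253 bp) and chr13:23497579-23508176 with 6 (10598 bp; 10657 and 10817 bp). On chromosome 19 a domain of 11887 bp held 8 tRNA genes (chr19:12001695-12013581; 11894 and 9025 bp). On chromosome 11, 3 domains between 69035572 and 69126885 held 16, among them the domains of Borcs6 (8956 bp) and of Hes7 with Aloxe3 (9919 bp). These domains span several genes each, so their width is not that of 1 promoter.

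Replication-dependent histone genes lie in the same part of chromosome 13 and were likewise joined. Of the 62 listed, 43 had the 5' end in a domain and 20 in a broad one, but these 20 shared 6 domains, 5 on chromosome 13 and 1 on chromosome 3. After the H1f5 domain the widest held H2bc13, H2ac13, H3c10 and H2bc14 (8533 bp; 8524 and 8367 bp). Enrichment values were low, with a median of 10.5 and 4.74 for the domain of H4c1, H3c1 and H1f1. Peaks covered a median of 73.6% of these domains, against 92.8% of all broad domains. When touching peaks alone were joined, 5 histone genes kept the 5' end in a domain and 0 in a broad one. For all genes it was 49 of 6058, so this 0 is near the background share. Histone genes are also similar in sequence, and the treatment of reads that match several copies is not stated by the authors.

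CpG content was similar in promoters of broad and of narrower domains. RefSeq promoter windows were found for 352 of the 429 genes (82.05%). They had a median of 23 CpG (quartiles 16 and 32), against 22 CpG (15 and 29) for genes of narrower domains and 5 CpG for genes with no domain. Windows with fewer than 10 CpG were 10.8% of broad, 10.85% of narrower and 66.71% of windows of genes with no domain. Median GC content was 63.3%, 61.3% and 51.0% in the same order. Among the 18 erythroid genes of broad domains with a window, the median was 21 CpG with a range of 1 to 40, from Kel to Myb.

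**Figure D5:**
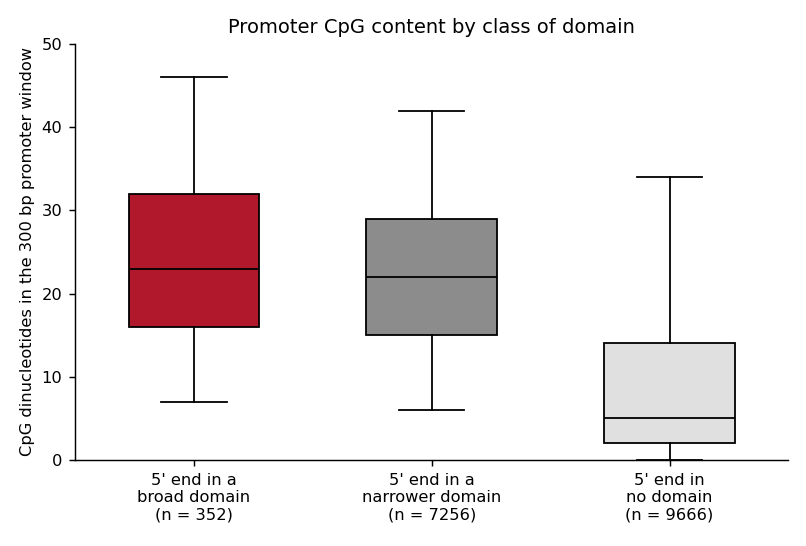
CpG dinucleotides in the 300 bp promoter window (y axis) for genes with the 5' end in a broad domain (n = 352), in a narrower domain (n = 7256) and in no domain (n = 9666); boxes show quartiles and medians, and whiskers run from the 5th to the 95th percentile. Medians are 23, 22 and 5 CpG, and the first 2 boxes overlap over most of their length.

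Short motifs were counted on both strands of these windows. The GATA words AGATAA or TGATAA were in 9.66% of broad-domain promoters (6.99% to 13.2%), against 9.41% of those of narrower domains and 18.6% of all promoters in the table. In the erythroid genes of broad domains 6 of 18 windows held one, among them Tal1 with 1 and Kel with 2. The KLF word CCACACCC was in 4.83%, 3.89% and 3.57%, the GC box GGGCGG in 67.3%, 68.9% and 35.9%, and CCAAT in 44.6%, 40.1% and 37.6% of broad, narrower and all promoters. The E-box CANNTG was in 55.4% (50.2% to 60.5%), 61.0% (59.9% to 62.1%) and 72.3%, and the TATA word TATAAA in 9.66% (6.99% to 13.2%), 5.86% (5.34% to 6.42%) and 13.7%. The intervals of broad and narrower domains do not overlap for the TATA word. They cover counting error only, several words were compared, and genes that share a domain were counted separately, so this is not a test. The words can overlap each other, and a match is a description of the letters and not a bound site.

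An older deposited peak set on the build mm9 was read with GENCODE M1 starts for the 371 member genes named there. Of these, 258 (69.54%) had the 5' end in a broad domain of the older set, and 25 in none. From the other side, 361 protein-coding genes had the 5' end in a broad domain of the older set. Of the 310 of them that entered the comparison, 258 (83.23%) were broad in the replicated set. Its widths were 16276 bp for Abt1, 10802 bp for Irs2, 10519 bp for Bcl11a, 8695 bp for Foxo3 and 8340 bp for Tal1. Irf2bp2 was narrower there, at 10310 bp, as was Ppp1r9b, at 8309 bp. Kel (4696 bp), Cpox (4555 bp), Gypc (4364 bp) and Klf3 (4198 bp) were under 5000 bp, and the listed 5' ends of Nfe2, Car1 and Slc11a2 were in no domain. The authors' notes do not name the reads behind the older set.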

How the data were processed

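H3K4me3 ChIP-seq of 2 biological replicates of MEL cells was used as deposited: called peaks per replicate, from pooled alignments and as a replicated set on mm10, and an older set on mm9. Per the notes deposited with the files, the replicated peaks were derived from the other mm10 sets, and all 37541 replicated peaks used are peaks of the pooled set. Each peak has the authors' enrichment score, of unstated scale, and deposited −log10 p-values and q-values. The sources used here name no aligner, caller or threshold. The labels do not tell whether the replicates were separate cultures, so their spread may be technical.

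Peaks were joined and assigned with Python 3.11.15 and pandas 2.3.3, checked on simulated peaks. Gene ends came from RefSeq (GRCm38.p6), 1 outer 5' end per gene, so inner promoters can be missed. Strand came from the RefSeq promoter table (17274 genes) or GENCODE M1 by symbol (3649) or synonym (395), and 313 of 21631 genes had none. Exons and introns were not annotated. Shares have 95% Wilson intervals, which cover counting error only, since regions are not independent samples. With 1 group and members chosen by width, no test was made. The members and the 23 gene lists were chosen with earlier results of these data known. Named are the genes of the 15 widest domains, erythroid members in broad domains, the 3 widest broad members of each other list, the genes next to the threshold and the 5 widest domains with no 5' end. Some genes that the rule names are not reported here. All other gene names were picked with their values in view.

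Alternatives were gaps of 0, 500 and 2000 bp, minimum widths of 4000 and 6000 bp, a −log10 q of at least 5, the pooled set, each replicate alone and a 5' end within 1000 bp. Chosen after seeing the data were any RefSeq start, covered length, the older set and tRNA genes.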

Additional observations from a re-analysis of the deposited data

How the results depend on the processing

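No paired analysis was possible because both samples belong to 1 group. The results compared were counts, medians and shares, which have no direction that could reverse. Of 78 alternative values 40 stayed within the replicate spread or, for counts, within 1.5 times, and 38 moved further. The joining gap and minimum width set the counts most. The number of broad domains was 62 with a gap of 0 bp, 745 with 2000 bp, 1032 at a minimum of 4000 bp and 189 at 6000 bp, in place of 432. The number of genes was 49, 723, 1005 and 176 in the same order, and 279 where peaks alone had to cover 5000 bp, in place of 429. Of the 84 erythroid list genes, those in a broad domain fell to 6 with a gap of 0 bp and 10 at 6000 bp, in place of 25. The replicates' own peaks gave 27 and 24. The 6 and 10 stand beside 49 and 176 of all 21318 genes at those settings, in place of 429.

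The median width was 5462, 5718 and 6099 bp with gaps of 0, 500 and 2000 bp, 4792 and 6922 bp at minima of 4000 and 6000 bp, 5749 bp both with a −log10 q of at least 5 and for covered length, 5879 bp in the pooled set, and 5823 to 5841 bp with a replicate left out. The share with a protein-coding 5' end was 66.13% and 75.17% with gaps of 0 and 2000 bp, 73.02% at 6000 bp, 80.79% within 1000 bp and 86.81% for any RefSeq start, in place of 78.7%. The median enrichment value was 13.48, 14.81 and 14.11 with gaps of 0, 500 and 2000 bp and 14.58 to 14.92 with a replicate left out. Median promoter CpG was 23.5 with a gap of 0 bp, 25 at a minimum of 4000 bp, and 24 with a gap of 500 bp, at 6000 bp, in the pooled set, for covered length and with either replicate left out, in place of 23. Apart from the construction of each alternative, the cause was not tested.

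Unknown depth limits all widths: weak edges and gaps cannot be told apart from missed peaks.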

Other observations

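Of 1005 miRNA hairpins in the RefSeq table, 89 lay in a domain and 8 of these in a broad one. They were Mir132, Mir212, Mir1894, Mir1900, Mir1931, Mir5123, Mir5131 and Mir7687. The share of hairpins in a domain that lay in a broad one was 8.989% (95% Wilson interval 4.625% to 16.75%), beside 4.63% of genes in a domain and 7.344% of domain bases. These 8 were named after their positions were seen.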
